A study of Mus musculus with 3 samples.

Results

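Dnmt3a, Tet2, Asxl1 and Jak2 are the mouse counterparts of 4 genes whose mutations drive clonal hematopoiesis, and this account covers the marked chromatin around them in aged stem cells. The members are the deposited peak regions that overlap 4 fixed mm9 windows: chr12:3780000-3930000 for Dnmt3a, chr3:133090000-133260000 for Tet2, chr2:153150000-153250000 for Asxl1 and chr19:29300000-29410000 for Jak2. The windows took in 66 of 93413 H3K27ac regions and 89 of 155027 H3K4me1 regions. The cells were primary hematopoietic stem cells (HSCs) from the bone marrow of C57BL/6 mice, sorted as SP-KSL-CD150+ and labelled as 24 months old. SP is the side population that expels a DNA dye, KSL stands for c-Kit and Sca-1 on cells without lineage antigens, and CD150 is a stem cell surface protein. No genotype or treatment is labelled. H3K27ac (antibody ab4729) and H3K4me1 (antibody ab8895) were each profiled by chromatin immunoprecipitation sequencing in 1 library, beside an input library that was not analysed here. All 3 libraries carry the label of a technical replicate of biological replicate 1. Differences between marks or loci are therefore without any replicate error, and they were not tested. No other age is among these samples, so nothing below is a change with age.

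In clonal hematopoiesis the descendants of a single mutated stem cell come to make up a measurable part of the blood cells, and it becomes common with age. DNMT3A places methyl groups on DNA that lacked them, and TET2 starts their removal by oxidising methylcytosine. ASXL1 is a chromatin regulator that partners the histone H2A deubiquitinase BAP1. JAK2 is the tyrosine kinase that carries signals from cytokine receptors, the thrombopoietin receptor of stem cells among them. H3K27ac is an acetylation of active promoters and enhancers, whereas H3K4me1 marks enhancers and the flanks of active promoters. The files hold peaks only, so neither expression nor mutations of these genes were measured.

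No mm9 gene annotation was used here, so no region is assigned to a promoter, exon or intron, and the sorted cells were not checked against marker genes. The windows carry the names of the 4 genes, and some regions in them may belong to neighbours. In the RefSeq gene order of assembly GRCm38.p6 the adjoining protein-coding genes are Dtnb and Pomc for Dnmt3a, Ppa2 and Cxxc4 for Tet2, Kif3b and Nol4l for Asxl1, and Rcl1 and Insl6 for Jak2. The bases before the start sites of the 4 genes, as RefSeq gives them for GRCm38.p6, are shown because they are what a promoter peak would cover. Their positions cannot be set against the mm9 regions. Each line holds 250 bases, 5′ to 3′, with every CpG dinucleotide in capitals, and of the 3 Dnmt3a entries the one that overlaps the first is not shown.
Dnmt3a upstream entry, chr12:3806730-3806979, + strand: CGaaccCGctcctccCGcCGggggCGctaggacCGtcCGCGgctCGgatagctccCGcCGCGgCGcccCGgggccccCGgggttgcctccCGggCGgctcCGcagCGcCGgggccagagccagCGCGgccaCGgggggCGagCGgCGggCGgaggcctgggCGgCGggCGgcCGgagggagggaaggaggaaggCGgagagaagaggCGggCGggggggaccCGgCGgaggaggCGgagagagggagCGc
Dnmt3a downstream entry, chr12:3891494-3891743, + strand: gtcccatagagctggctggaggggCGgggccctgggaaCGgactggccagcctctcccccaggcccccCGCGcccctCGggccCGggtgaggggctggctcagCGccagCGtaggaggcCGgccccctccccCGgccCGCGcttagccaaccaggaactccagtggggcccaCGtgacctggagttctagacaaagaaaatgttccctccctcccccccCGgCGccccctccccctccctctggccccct
Tet2, chr3:133544391-133544640, - strand: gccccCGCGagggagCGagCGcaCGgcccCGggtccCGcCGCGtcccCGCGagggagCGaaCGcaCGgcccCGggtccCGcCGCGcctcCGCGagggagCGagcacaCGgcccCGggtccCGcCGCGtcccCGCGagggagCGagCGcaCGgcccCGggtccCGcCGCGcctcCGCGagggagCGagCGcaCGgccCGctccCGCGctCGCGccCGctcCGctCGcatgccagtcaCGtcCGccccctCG
Asxl1, chr2:153345580-153345829, + strand: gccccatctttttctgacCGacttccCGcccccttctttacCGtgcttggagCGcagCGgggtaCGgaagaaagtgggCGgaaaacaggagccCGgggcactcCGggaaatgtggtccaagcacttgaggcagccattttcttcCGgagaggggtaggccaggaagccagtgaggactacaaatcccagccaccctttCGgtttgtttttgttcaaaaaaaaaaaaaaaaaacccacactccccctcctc
Jak2, chr19:29251553-29251802, + strand: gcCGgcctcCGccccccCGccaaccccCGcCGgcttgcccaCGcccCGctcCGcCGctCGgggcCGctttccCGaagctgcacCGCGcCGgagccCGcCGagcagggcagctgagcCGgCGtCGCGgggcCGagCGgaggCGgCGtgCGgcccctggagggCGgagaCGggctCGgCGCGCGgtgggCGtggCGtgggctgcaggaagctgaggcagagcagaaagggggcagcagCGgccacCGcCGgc

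The upstream Dnmt3a entry held 38 CpGs, Tet2 51, Jak2 37, the downstream Dnmt3a entry 15 and Asxl1 11. The median over 32851 RefSeq promoters was 6. At least as many CpGs as in the Tet2 entry were found in 0.067% of promoters, and at least as many as in the Asxl1 entry in 35.6%. All 5 entries were above the median, and Asxl1 and the downstream Dnmt3a entry were the sparsest. The GC-box core GGGCGG, searched on both strands, was found in each of the 5 entries and in 32.7% of all promoters. This core itself holds a CpG, and the entries were not compared with promoters of like CpG number. The ETS core CCGGAA, searched on both strands, was found in the Asxl1 entry and in 12.0% of all promoters. The GATA motif AGATAA, searched on both strands, was in none of the 5 and in 9.99% of all. These are matches of letters and do not show binding.

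The window around Dnmt3a was far more heavily marked than the other 3. H3K27ac formed 38 regions there, covering 24.3 kb or 16.2% of the window, and H3K4me1 formed 35 regions covering 65.1 kb or 43.4%. Jak2 came next, with 9 H3K27ac regions over 8.58% of its window and 23 H3K4me1 regions over 19.4%. Asxl1 followed with 9 H3K27ac regions over 5.26% and 12 H3K4me1 regions over 13.9%. Tet2 was the most sparsely covered, with 10 H3K27ac regions over 2.97% and 19 H3K4me1 regions over 9.15%. The order Dnmt3a, Jak2, Asxl1, Tet2 was the same for both marks. Across the autosomes H3K27ac covered 2.24% and H3K4me1 6.95% of the length, so each of the 4 windows lay above the mean for each mark.

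**Figure D1:**
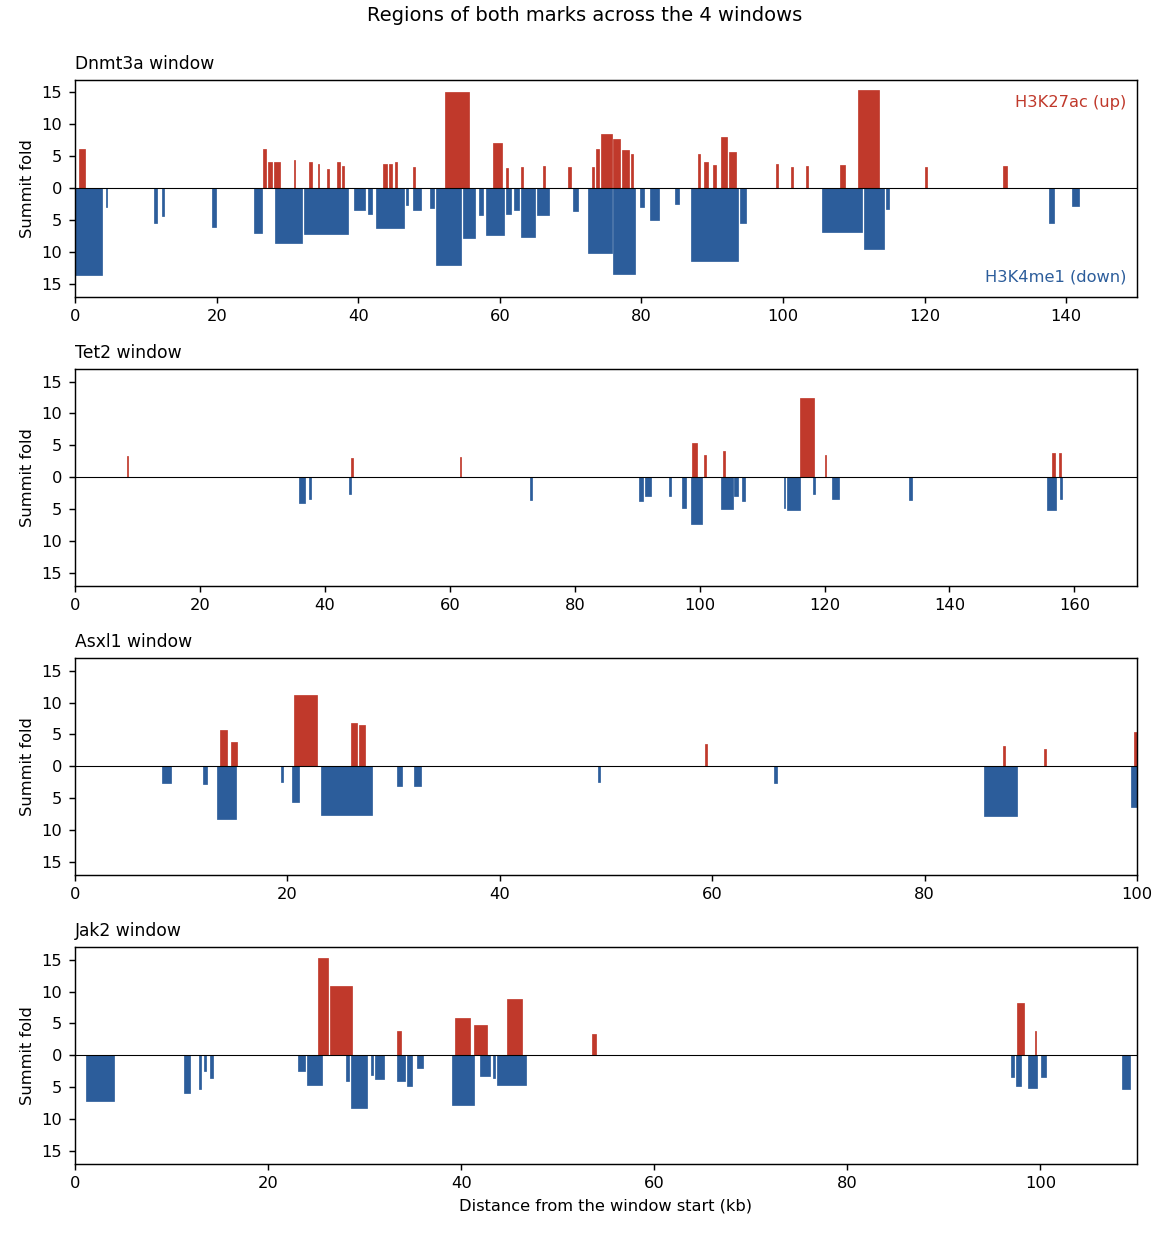
Regions of both marks in the 4 windows, drawn by distance from the window start in kb. Each bar is 1 region with its width to scale and its summit fold as height, H3K27ac upward and H3K4me1 downward, and regions that cross a window end are cut there. Dnmt3a has regions spread through its window, whereas Tet2, Asxl1 and Jak2 each show a main cluster around their strongest H3K27ac region and long unmarked stretches.

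To place these values, the autosomes were divided into consecutive tiles of the length of each window. Of 16460 tiles of 150 kb, 1.26% had at least the H3K27ac coverage of the Dnmt3a window and 0.905% at least its H3K4me1 coverage, against tile medians of 0.615% and 2.87%. Of 22448 tiles of 110 kb, 6.78% reached the Jak2 window for H3K27ac and 11% for H3K4me1. For Asxl1 13.7% and 17.6% of 24696 tiles of 100 kb did so. For Tet2 24.9% and 27.7% of 14522 tiles of 170 kb did so. Thus about 1 tile in 100 was as covered as the Dnmt3a window, and a far larger share as covered as that of Tet2. By number of regions, the share of tiles with at least as many was 0.808% (H3K27ac) and 2.87% (H3K4me1) for Dnmt3a, 16.7% and 5.92% for Jak2, 14.7% and 21.6% for Asxl1, and 24.4% and 22.9% for Tet2. Tiles take in gene-poor sequence and assembly gaps, whereas each window was set around a gene.

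**Figure D2:**
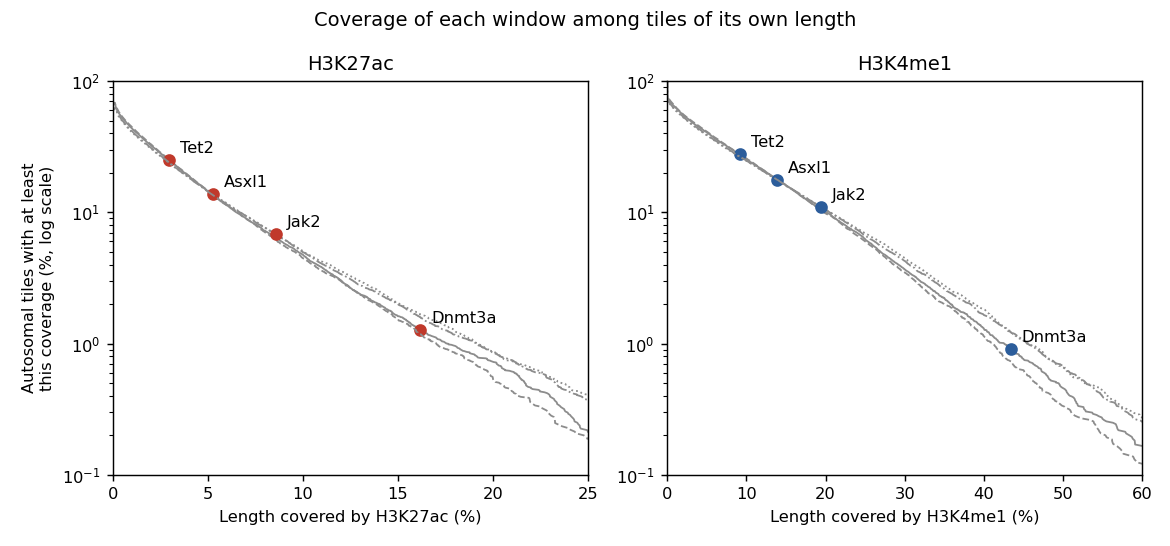
Share of autosomal tiles (%, log scale) with at least a given length covered (%), for H3K27ac and H3K4me1. Grey lines are tiles of 150 kb (solid), 170 kb (dashed), 100 kb (dotted) and 110 kb (dash-dot), and each point is the window of the named gene on the line of its own length. Dnmt3a lies near 1% of tiles for both marks, and Tet2 at 24.9% and 27.7%.

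Within the Dnmt3a window the H3K27ac regions followed one another closely. Joined over gaps of up to 12.5 kb, 37 of its 38 H3K27ac regions formed 1 domain at chr12:3806539-3911632. The domain spanned 105.1 kb, of which 23.4 kb was acetylated and 54.5% lay in H3K4me1. It ranked 161 of 30221 domains by acetylated length, in the top 0.533%. The remaining H3K27ac region lay near the window start and belonged to a domain that reaches outside. The corresponding domain of Jak2, chr19:29325196-29353942, held 7 regions and 8.51 kb acetylated over 28.7 kb, and ranked 1127. That of Tet2, chr3:133188854-133210294, held 5 regions and 3.64 kb over 21.4 kb, and ranked 3523. At Asxl1 the domain of largest acetylated length, chr2:153237350-153282070, held 13 regions, 10 of them beyond the window, and the domain inside it, chr2:153163613-153177257, held 5 regions with 4.38 kb acetylated over 13.6 kb and ranked 2789.

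The strongest H3K27ac regions at the 4 loci were of similar height, unlike the total length marked. The fold given here is the authors' ratio of the summit to its local background, and the reads at a summit were recovered from the deposited fold and −log10 p. At Dnmt3a the first was chr12:3890606-3893545, 2940 bp wide, with 15.4-fold and 51 summit reads. The second, chr12:3832305-3835639, was 3335 bp wide with 15.1-fold and 50 reads, and its summit lay 56.5 kb from the first. The third, chr12:3854326-3855803, had 8.57-fold and 28 reads.

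At Jak2 the strongest was chr19:29325196-29326157, with 15.2-fold and 51 reads in only 962 bp. Its neighbour chr19:29326395-29328695 had 10.9-fold and 36 reads over 2301 bp, and their summits were 1.05 kb apart. The third at Jak2, chr19:29344759-29346314, had 8.86-fold and 29 reads. Tet2 had a single tall region, chr3:133206025-133208229, with 12.4-fold and 41 reads over 2205 bp. It held 43.6% of the acetylated length of the Tet2 regions. The next at Tet2, chr3:133188854-133189541 and chr3:133193792-133194045, had 5.32-fold with 17 reads and 4.04-fold with 14 reads. At Asxl1 the tallest was chr2:153170633-153172785, with 11.2-fold and 37 reads over 2153 bp, or 35.1% of the acetylated length of its regions. It was followed by chr2:153175992-153176531 (6.80-fold, 22 reads) and chr2:153176770-153177257 (6.50-fold, 21 reads).

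These 6 regions of 10-fold or more were 9.09% of the 66, against 7.77% of all H3K27ac regions, a share near the background. They ranked between 2479 and 5854 of 93413 by fold, within the top 2.78 to 6.55%, where the highest fold was 43.4. Of the other 60 H3K27ac regions 28 had 4-fold or more and 32 less. Those below 4-fold were 48.5% of the 66, against 51.5% of the whole list, again near the background. Besides the 3 strongest of each window, the 35 at Dnmt3a ran from 2.95-fold to 7.98-fold, the 7 at Tet2 from 2.95-fold to 3.84-fold, the 6 at Asxl1 from 2.66-fold to 5.61-fold and the 6 at Jak2 from 3.39-fold to 8.27-fold. At Tet2 those 7 held 9 to 12 summit reads, close to the 8 reads of the weakest summit in the whole list. The median over the 66 was 4.09-fold and 13 reads, beside 3.86-fold and 13 reads over the whole list. Median widths were 407 bp at Dnmt3a, 268.5 bp at Tet2, 522 bp at Asxl1 and 962 bp at Jak2, against 355 bp over the list. Dnmt3a thus differed from the other loci by the number of its H3K27ac regions, while the fold of a typical region there, 4.14, lay between the medians of Tet2 (3.66) and Jak2 (5.91).

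H3K4me1 stood out at Dnmt3a in height as well. Of its 35 H3K4me1 regions 5 reached 10-fold or more, against 1.12% of all H3K4me1 regions. At the other 3 loci 0 of 54 did, which is near that share. The strongest at Dnmt3a was chr12:3778468-3783765, with 13.7-fold and 64 reads, which crosses the window start. Only 0.0142% of H3K4me1 regions were as strong. Next came chr12:3856030-3859039 with 13.5-fold and 63 reads, at 0.0194%. The others of that height were chr12:3831043-3834554 (12.0-fold), chr12:3867060-3873669 (11.4-fold) and chr12:3852424-3855826 (10.1-fold). Each of the 5 met 1 to 5 H3K27ac regions. The region chr12:3867060-3873669 was also the widest at the 4 loci, at 6610 bp, and met 5 H3K27ac regions of 3.62-fold to 7.98-fold.

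At the other loci the strongest H3K4me1 regions were chr2:153163392-153165129 at Asxl1 (8.24-fold, 42 reads), chr19:29328558-29330195 at Jak2 (8.21-fold, 38 reads) and chr3:133188550-133190451 at Tet2 (7.37-fold, 34 reads). The widest were chr2:153173172-153177945 at Asxl1 (4774 bp, 7.60-fold), chr19:29343676-29346743 at Jak2 (3068 bp, 4.68-fold) and chr3:133203991-133206097 at Tet2 (2107 bp, 5.18-fold). The remaining H3K4me1 regions ran from 2.53-fold to 9.48-fold at Dnmt3a (30 regions), from 2.59-fold to 5.18-fold at Tet2 (17), from 2.53-fold to 7.79-fold at Asxl1 (10) and from 1.91-fold to 7.86-fold at Jak2 (21). The median H3K4me1 region measured 1013 bp at Dnmt3a and 584 to 626.5 bp at the other loci, beside 687 bp over the list. At Jak2 14 of 23 H3K4me1 summits had a raised local background, above the genome-wide level by a factor of more than 1.05, with a maximum of 2.25. This held for 36.8% of all H3K4me1 summits. Such a background lowers the fold of a region, and its part in the lower folds at Jak2 was not tested. At Dnmt3a 7 of 35 summits were so raised, at Tet2 8 of 19 and at Asxl1 6 of 12. Of the 66 H3K27ac summits 9 were raised, against 26.2% of all.

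**Figure D3:**
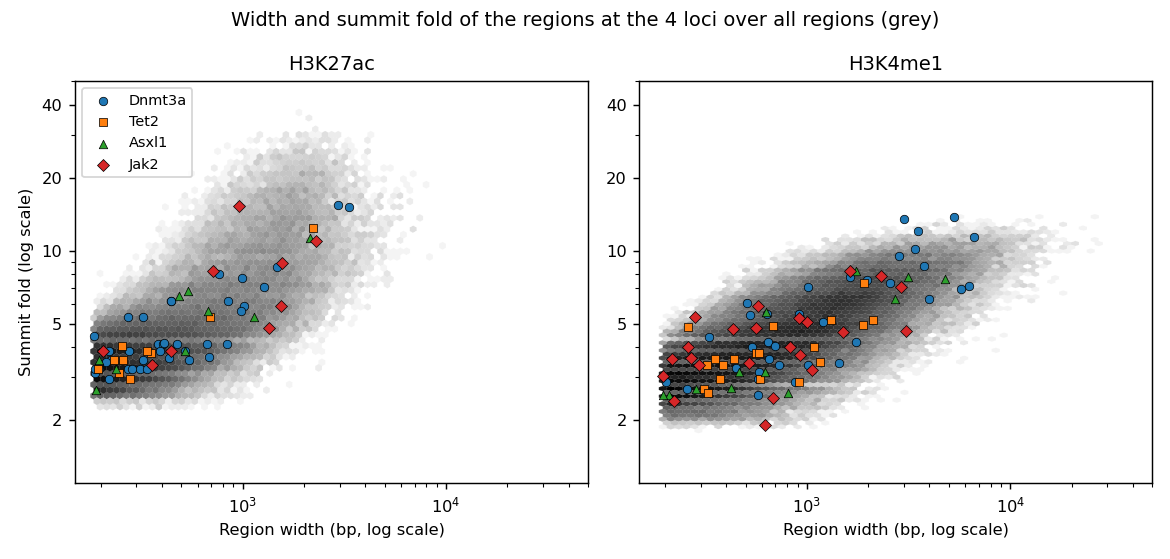
Width in bp and summit fold of each region at the 4 loci (coloured symbols), over all regions of the list (grey, darker where there are more), both axes log. The H3K27ac regions lie inside the cloud of the library, the 962 bp region of Jak2 at 15.2-fold among them. In H3K4me1 the 5 regions of 10-fold or more are all from Dnmt3a.

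Most acetylated regions at the 4 loci also carried H3K4me1. Of the 66 H3K27ac regions 50 (75.8%, exact Clopper-Pearson 95% interval 63.6 to 85.5%) overlapped H3K4me1 by 1 bp or more, against 71.7% of all H3K27ac regions. The share was 30 of 38 at Dnmt3a (78.9%, interval 62.7 to 90.4%), 8 of 9 at Jak2 (88.9%, interval 51.8 to 99.7%), 7 of 9 at Asxl1 (77.8%, interval 39.99 to 97.2%) and 5 of 10 at Tet2 (50%, interval 18.7 to 81.3%). The intervals express counting error alone: adjacent regions are related, and reads lacking molecular identifiers can be copies of 1 molecule. The share was lowest at Tet2, but all 4 intervals overlap one another and hold the share of the whole list. In the other direction 36 of 89 H3K4me1 regions (40.4%, interval 30.2 to 51.4%) met H3K27ac, against 33.6% of all. They were 16 of 35 at Dnmt3a, 9 of 23 at Jak2, 5 of 12 at Asxl1 and 6 of 19 at Tet2.

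By length, 65.9% of the acetylated sequence of the whole list lay in H3K4me1. At Dnmt3a, where H3K4me1 covered the most sequence, it was 85.0%, against 60.6% at Jak2, 58.2% at Asxl1 and 32.0% at Tet2. Of the tallest region of Tet2 3.76% lay in H3K4me1, and without that region the Tet2 value was 53.9%. The regions of 10-fold or more at Asxl1 (19.3%) and Jak2 (36.9% and 17.3%) also lay mostly outside H3K4me1. Those at Dnmt3a lay mostly inside it (92.2% and 92.3%). Such regions were a large part of the acetylated length at Asxl1 (2153 bp of 5.26 kb) and Jak2 (962 and 2301 bp of 9.43 kb). At Dnmt3a they were 2940 and 3335 bp of 24.3 kb. The values of these 3 windows without such regions were not computed. The higher share at Dnmt3a than at Jak2 and Asxl1 therefore cannot be told apart from the placement of these few regions. How far the difference between windows rests on them was not tested. Among the 16 H3K27ac regions without H3K4me1, fold ran from 2.66 to 6.21 with a median of 3.43 and width from 189 to 666 bp. The 50 with H3K4me1 ran from 2.95-fold to 15.4-fold, with a median of 4.62 and a median width of 503 bp. Regions without H3K4me1 were thus low and narrow, but the ranges overlapped. The whole list had medians of 3.50-fold and 252 bp without H3K4me1, and 4.37-fold and 448 bp with it. The 53 H3K4me1 regions without H3K27ac had a median of 3.45-fold and 560 bp, against 6.63-fold and 1939 bp for the 36 with it. Over all H3K4me1 regions the medians differed in the same direction, 3.58-fold and 493 bp without and 5.69-fold and 1396 bp with H3K27ac. The strongest of the 53 without H3K27ac were at Dnmt3a and Jak2, both 7.09-fold.

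The H3K27ac regions of 10-fold or more, called tall here, had their summits in stretches free of H3K4me1 at Tet2, Asxl1 and Jak2 and inside H3K4me1 at Dnmt3a. At Tet2 the H3K4me1 regions on either side ended 950 bp before and began 1173 bp after the summit, leaving 2122 bp free. At Asxl1 the distances were 963 and 1161 bp and the free stretch 2123 bp. At Jak2 a single free stretch of 2525 bp held both tall summits, and the first lay 81 bp from its nearer end. In the whole list 5398 tall summits lay outside H3K4me1 with a neighbour on each side, and over these the free stretch had a median of 1218.5 bp (quartiles 906 and 1691 bp). The 3 stretches here were all longer than the third quartile.

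At Dnmt3a both tall summits fell inside H3K4me1 regions, but close to an edge. The summit of the first lay 28 bp inside chr12:3891403-3894247, a region of 9.48-fold, beyond a free gap of 230 bp. The summit of the second lay 120 bp inside chr12:3834811-3836437, a region of 7.79-fold, beyond a free gap of 256 bp. Of their lengths 92.2% and 92.3% lay in H3K4me1, and H3K4me1 covered 80.3% and 82.8% of the sequence within 5 kb of them. Around the 4 tall summits of the other loci it covered 35.6 to 49.2%. Of all H3K27ac regions of 10-fold or more, 74.4% had their summit outside H3K4me1, so 4 of 6 at the 4 loci is near that share. Of the 1855 such summits inside H3K4me1, the median distance to the nearer edge was 468 bp (quartiles 132 and 1428 bp), and both Dnmt3a summits lay closer than the first quartile.

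**Figure D4:**
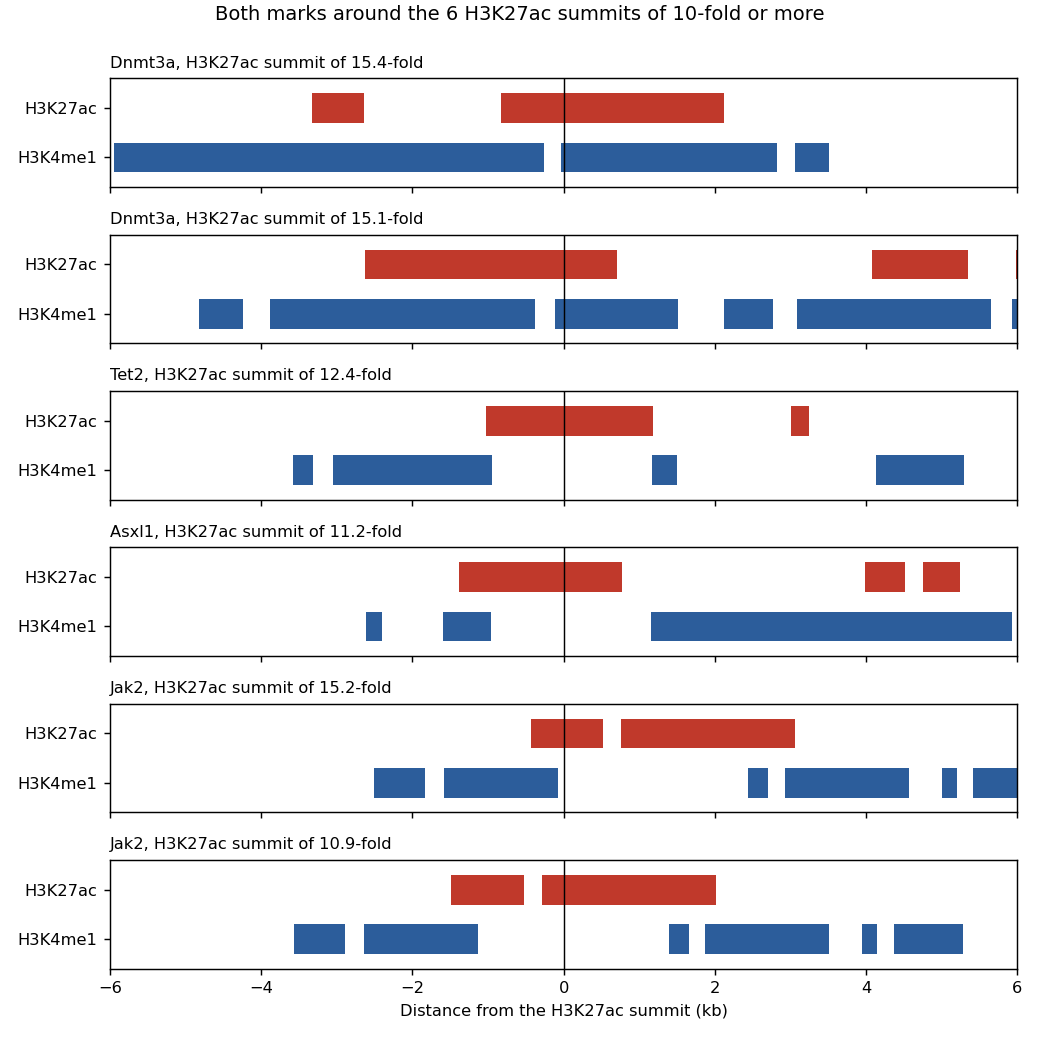
Regions of both marks within 6 kb of 6 acetylation summits (those of at least 10-fold), by distance from the summit (vertical line) in kb. Bars show where a region of each mark lies and not its height. The Tet2, Asxl1 and Jak2 summits stand in H3K4me1-free stretches of 2122 to 2525 bp, and the Dnmt3a summits in H3K4me1 just beyond gaps of 230 and 256 bp.

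Over all 66 members the H3K27ac summit lay inside H3K4me1 in 43 (65.2%, interval 52.4 to 76.5%), against 58.2% of all H3K27ac summits. It did so in 29 of 38 at Dnmt3a, 5 of 9 at Jak2, 6 of 9 at Asxl1 and 3 of 10 at Tet2. Of the 28 regions from 4-fold to under 10-fold, 25 had their summit inside H3K4me1, against 72.8% of such regions in the list. Of the 32 below 4-fold, 16 did, against 51.5%. A summit flanked by H3K4me1 at 1 kb on both sides but free of it was found once, at chr19:29397631-29398347 in the Jak2 window (8.27-fold), which is 1 of 66 against 5.85% of the list. That region lay with a second, chr19:29399398-29399603, at 97.6 to 99.6 kb of the window. H3K4me1 was looked for only at the points 1 kb from each summit. On the farther side it began 1173 bp from the tall Tet2 summit and 1161 bp from that of Asxl1, so neither summit counted.

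Between the clusters lay long stretches with neither mark. The longest was at Jak2, 43.0 kb at chr19:29353943-29396958. Tet2 had 27.3 kb at chr3:133098502-133125807 and a further 21.7 kb, Asxl1 had 19.4 kb at chr2:153216153-153235591, and Dnmt3a had 10.8 kb at chr12:3900313-3911090. Either mark covered 45.9% of the Dnmt3a window, 22.7% of Jak2, 16.1% of Asxl1 and 11.2% of Tet2. A stretch without regions is one without a called peak at this depth, where the weakest called summits held 8 reads for H3K27ac and 10 for H3K4me1.

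The window ends cut through marked sequence in places. Of the 155 members 3 cross an end: the 13.7-fold H3K4me1 region of Dnmt3a, and at Asxl1 chr2:153249745-153250878 (H3K27ac, 5.32-fold) and chr2:153249442-153252138 (H3K4me1, 6.32-fold). Just outside, an H3K27ac region of 7.09-fold ended 0.145 kb before the Dnmt3a window, where the first inside had 6.21-fold. After the Dnmt3a window the next H3K27ac region lay 29.9 kb away, and after the Jak2 window 25.5 kb away with 9.16-fold. At Tet2 the nearest H3K27ac regions outside lay 19.5 and 27.1 kb from the ends, with 2.95-fold and 3.25-fold.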

How the data were processed

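The labels give 3 chromatin immunoprecipitation sequencing libraries, grouped by title; the peak lists of H3K27ac and H3K4me1 were used. Per the submitters' processing notes, Bowtie2 2.0.6, MACS2 2.0.10.20131216 and build mm9 were involved; mapping filters, caller options and the control are not given in the sources used here. Each deposited list holds regions of 1 library with the authors' fold ratio, −log10 p and −log10 q values at the summit, a summit offset, and a deposited score, unused here, that is −log10 q multiplied by 10 and truncated.

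Members were the regions overlapping the 4 windows. Coverage counts bases inside a window, and regions met when they shared at least 1 bp. Reads at a summit and its local background were computed by taking fold as (reads + 1)/(background + 1) and p as the Poisson probability of more reads; whole reads returned the deposited −log10 p within 0.001 at all 93413 and 155027 summits. The calculation was checked on 5000 summits per mark simulated with the same formulas. That check covers the inversion alone and cannot show that the caller used these forms. Median summit reads were 13 for H3K27ac and 20 for H3K4me1, and the genome-wide background 2.38 and 3.75 reads. Shares have exact Clopper-Pearson 95% intervals. Tiles start at each chromosome's first base and end at its last region. Domains joined H3K27ac regions no more than 12.5 kb apart. Regions named are the 3 strongest of H3K27ac, the strongest and widest of H3K4me1 and the largest domain per window, and any of 10-fold or more in H3K27ac; the H3K4me1 regions of 10-fold or more, other pieces at the tall summits and the window ends were named after their values were seen. The members and lists were chosen with earlier results of these data known. Sequences were matched by symbol in the RefSeq promoter table (GRCm38.p6), where all 4 genes were found. The alternatives changed the q threshold, window ends, overlap rule and list size. A planned count over further clonal hematopoiesis genes was not made, for want of mm9 gene positions here. Tools were scipy 1.17.1, numpy 2.4.6, matplotlib 3.10.9 and pandas 2.3.3 under Python 3.11.15.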

Additional observations from a re-analysis of the deposited data

How the results depend on the processing

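Of 59 alternative values 40 moved, by a factor over 1.5 for counts or beyond the 95% binomial interval for shares, an interval that for coverage counts each base. The order Dnmt3a, Jak2, Asxl1, Tet2 by coverage was the same for both marks at both q limits and with narrowed or widened windows, the 4 settings compared for it. With the −log10 q limited to 5 or more and to 10 or more, H3K27ac regions numbered 27 and 17 (66 as reported) and H3K4me1 regions 55 and 35 (89 as reported). The share of H3K27ac regions with H3K4me1 (75.8%) was then 96.3% and 88.2%. The share of H3K4me1 regions with H3K27ac (40.4%) was 56.2% within 1 kb and 61.5% with equal numbers of regions in both lists. None of these altered shares was computed over the whole list, so they have no background beside them. In the whole list the share of H3K27ac regions with H3K4me1 was 57.6% below 4-fold and 85.5% from 4-fold to under 10-fold. Coverage by H3K27ac at those q limits was 10.2% and 8.34% at Dnmt3a, 1.70% and 1.30% at Tet2, 4.11% and 3.18% at Asxl1, and 7.66% and 5.03% at Jak2. Coverage by H3K4me1 was 38.5% and 35.1% at Dnmt3a, 6.78% and 3.53% at Tet2, 10.9% and 10.9% at Asxl1, and 16.4% and 12.0% at Jak2. With windows narrowed and widened by 10 kb at both ends, H3K27ac coverage was 18.0% and 15.3% at Dnmt3a, 3.24% and 2.66% at Tet2, 6.02% and 6.98% at Asxl1, and 10.5% and 7.26% at Jak2. H3K4me1 coverage was 46.4% and 40.1%, 10.4% and 8.76%, 15.6% and 16.2%, and 18.8% and 18.2% in the same order. By construction, higher q limits keep fewer regions, and counting regions within 1 kb as meeting can only raise a share. For the other settings the cause was not tested. No paired analysis was possible because there is a single library per mark. With 1 library per mark and medians of 13 and 20 summit reads, weak regions near 8 or 10 reads may be missed in either mark.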

Other observations

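Marked sequence went on beyond the ends of the Dnmt3a and Asxl1 windows. The H3K27ac region at the start of the Dnmt3a window closed a domain at chr12:3736126-3781355, which held 16 H3K27ac regions with 14.2 kb acetylated, reached 17.4-fold and ranked 470 of 30221 domains. Its highest fold was above that of any region inside the Dnmt3a window (15.4). The domain at the end of the Asxl1 window, chr2:153237350-153282070, had 4.41 kb acetylated over 44.7 kb, a highest fold of 5.32, and 35.2% of its span in H3K4me1.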
